A study of Drosophila melanogaster with 15 samples.

Results

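The nuclear genes for mitochondrial ribosomal proteins were followed through 5 groups of sorted larval neurons of Drosophila. Members were all genes whose platform symbol starts with mRpL (large subunit) or mRpS (small subunit), with 1 probe set kept per gene, the brightest on average over the 15 Affymetrix arrays. This gave 69 of 11982 named genes, 44 of the large and 25 of the small subunit, from 71 probe sets. A further 2 probe sets carried such a symbol together with that of another gene and were left out. Membership rested on the name alone and on no difference between groups.

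Mitochondria keep a small genome that encodes a few core subunits of the respiratory chain and the RNAs of their own ribosome. The proteins of that ribosome are encoded in the nucleus, made in the cytoplasm and imported, so that each mitochondrial ribosome joins products of both genomes. Many of these proteins descend from those of bacterial ribosomes, while others were added in the mitochondrial lineage, and neurons depend on the respiratory chain for the energy spent on ion pumping and transmission.

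All groups but one hold ventral lateral neurons (LNvs), circadian pacemaker cells that release the neuropeptide Pdf and number 8 per brain, taken from third-instar (L3) larvae kept at 25 °C in 12 h light and 12 h dark. Wild-type LNvs (yw, Pdf-Gal4, UAS-GFP) were collected at zeitgeber time 3 (ZT3, 3 h after lights-on) and at ZT15 (3 h after lights-off). At ZT15 the series also held LNvs of the clock mutants per0 (yw, per0, Pdf-RFP) and cyc0 (yw, Pdf-RFP, cyc0), and neurons sorted through the pan-neuronal driver elav (elav-Gal4, UAS-GFP, with no yw in the label). The mutants lack the function of period, a repressor in the clock loop, and of cycle, one of its activators. Each group had 3 arrays that the titles call biological replicates, each from about 1000 cells, the brightest 0.01% of a sort over dissociated brains. Every reporter marks cells by a promoter or driver and not by mitochondrial content, reporter and genotype cannot be told apart between mutants and wild type, and the sort protocol names RFP for all arrays although 3 groups carried GFP. Elav neurons bear the same tissue label as the LNvs, but Pdf lay between 3.06 and 4.49 there against 12.37 to 13.07 on the 12 LNv arrays. The elav transcript lay between 8.40 and 9.28 there. On the LNv arrays it ran from 5.00 (per0 replicate 2) to 8.67 (wild-type ZT3 replicate 3), which overlaps. Other pan-neuronal markers did not follow elav. In wild-type LNvs at ZT15 nSyb was higher than in elav neurons (limma, log2 difference 2.22, adjusted p = 0.0478). There brp averaged 5.27 against 2.94 in elav neurons, and fne 6.15 against 6.75. The summed log2 level of the 4 pan-neuronal markers was 19.24 to 27.62 against 21.28 to 24.13, which overlap.

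Values are log2 GCRMA values, and log2 4 was used as a working level below which a probe set is read as near background. Signals of different probe sets are not measures of relative abundance and are compared only between arrays. Of the 69 members, 7 (mRpL9, mRpL32, mRpL33, mRpL42, mRpL44, mRpS5 and mRpS21) reached log2 4 on all 15 arrays, 54 on 3 to 14, 6 on 1 or 2, and mRpL43 and mRpS18C on none. The 61 members that reached it on at least 3 arrays were tested among the 5829 probe sets that did so. At that limit, mRpL3 and mRpL40 entered with 3 arrays each and mRpS2 stayed out with 2. The 8 members that were not tested were mRpL10, mRpL21, mRpL27, mRpL43, mRpL48, mRpS2, mRpS6 and mRpS18C, and their highest value on any array lay between 3.90 and 4.92.

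**Figure D1:**
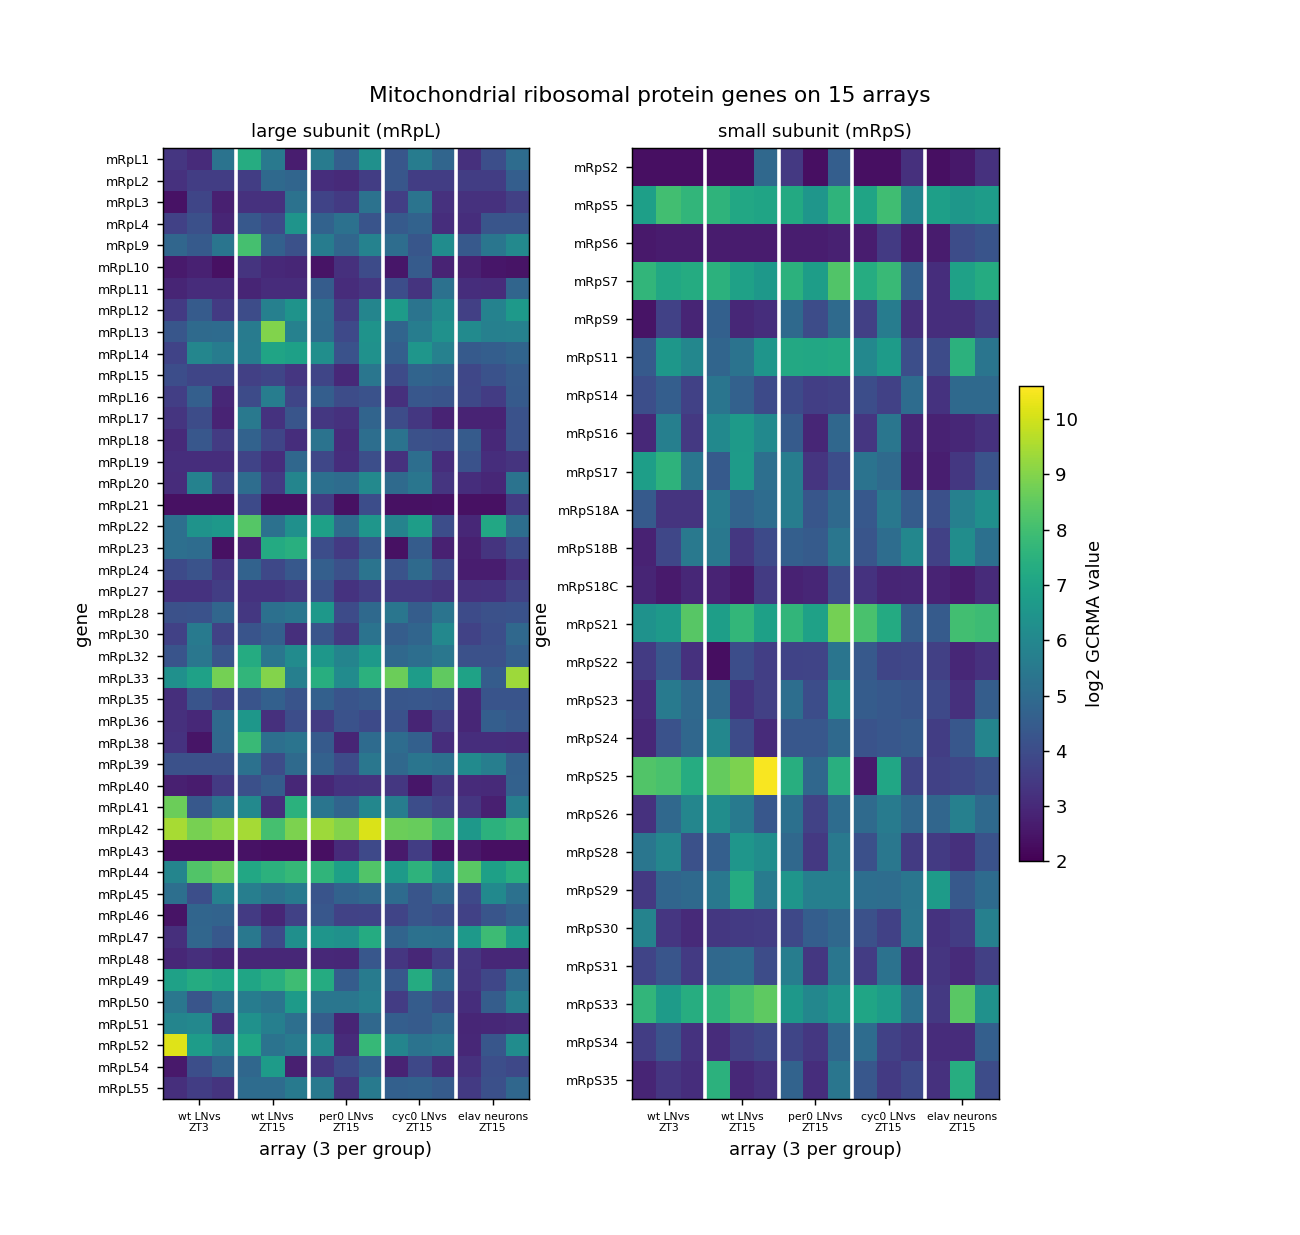
Log2 GCRMA values of the 69 members (rows) on the 15 arrays (columns, 3 per group, white lines between groups), with the large subunit on the left and the small on the right. mRpS25 is bright in both wild-type LNv groups and dark in elav neurons, and mRpL43 and mRpS18C stay below log2 4 throughout.

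Replicates of a group differed widely in how many members reached log2 4. The number was 28, 46 and 34 of 69 on the wild-type ZT3 arrays, 49, 40 and 44 at ZT15, 50, 32 and 58 in per0, 47, 51 and 39 in cyc0, and 16, 36 and 51 in elav neurons. Elav replicate 1, with the fewest members, also had the smallest share of all named genes at that level (23.5%), and per0 replicate 3, with the most, had the largest (37.3%). The arrays at both extremes were thus the same for members and for all named genes. The part of whole-array signal in the results below was not tested, and values after array scaling are given beside them. In bulk samples fewer cells that carry a transcript and less transcript per cell cannot be told apart. The SD between the 3 arrays of a group had a median over the 69 members of 0.60 in wild-type ZT3, 0.87 in wild-type ZT15, 0.73 in per0, 0.64 in cyc0 and 0.70 in elav neurons. The median standard error (SE) of a member's log2 difference was 0.69.

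**Figure D2:**
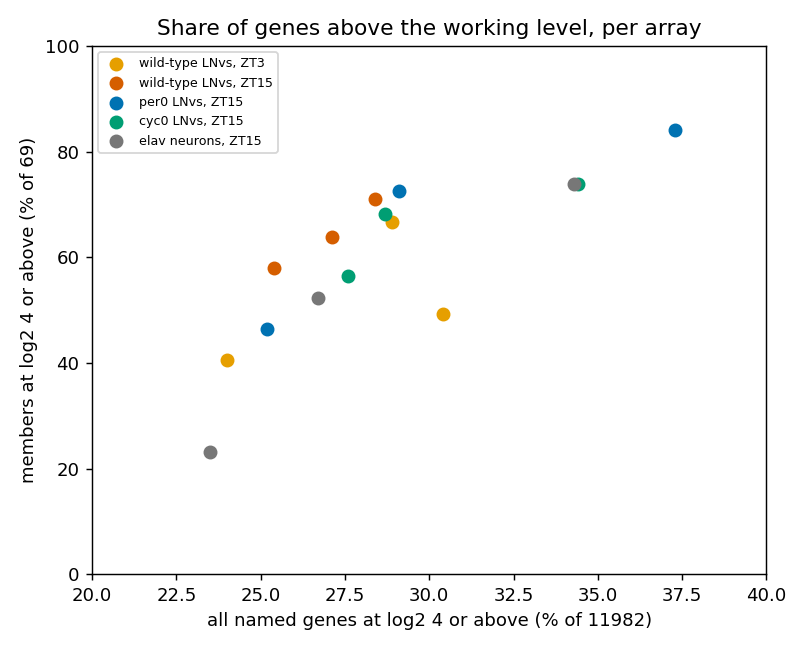
Each point is 1 array, with the percentage of all named genes at log2 4 or above on the horizontal axis and the percentage of the 69 members on the vertical axis, coloured by group. Elav replicate 1 lies lowest at 23.2% of members and per0 replicate 3 highest at 84.1%, so that replicates of a group lie far apart.

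Over the 5 groups at once, 5 of the 61 tested members differed (limma F test, adjusted p under 0.05), against 14.2% of all tested probe sets, and these were mRpS25 (adjusted p = 0.00243), mRpL47 (0.015), mRpL49 (0.0255), mRpL32 (0.0329) and mRpS16 (0.0438). Without a filter on low values 1 member was called, against 2.53% of all probe sets, and with quantile normalization 9 were, against 19.7%. With elav replicate 1, elav replicate 2 or wild-type ZT15 replicate 3 left out, 2 members were called, and without per0 replicate 1, per0 replicate 3 or cyc0 replicate 1, 3 were. Over all omissions of 1 array, 545 to 939 of all tested probe sets were called, against 830 with every array. Among members with a mean of at least 6, those that varied least over the 15 arrays were mRpS5 (SD 0.58), whose bacterial counterpart bears on decoding accuracy, mRpL44 (0.78), which has a ribonuclease III fold, mRpL42 (0.90) and mRpS21 (1.26). The only others with such a mean were mRpL33, mRpS7, mRpS25 and mRpS33, so this rank does not mean a constant level. mRpS21 ran from 4.46 to 8.81, and mRpL42 lay near the threshold (F test, adjusted p = 0.052) and is named below for per0. mRpS5 lay between 5.90 and 7.99 on the 15 arrays (F test, adjusted p = 0.773). mRpL33 averaged 7.35, 7.46, 7.03, 7.98 and 6.94 in wild type at ZT3, wild type at ZT15, per0, cyc0 and elav neurons (F test, adjusted p = 0.894). Its SDs ran from 0.75 in per0 to 2.41 in elav neurons, where the arrays lay at 6.96, 4.52 and 9.34.

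At ZT15 wild-type pacemaker neurons were set against the cells sorted through the elav driver. Of the 61 tested members 6 were higher in LNvs and none was lower, against 12.5% of all tested probe sets called, 7.26% higher and 5.25% lower. The share of members called higher was thus near the background. Quantile normalization added mRpS28 and mRpL24 as higher and mRpL47 as lower (9 calls, against 16.2% of tested probe sets), and centring each array on its median over the tested probe sets, a scaling added after the data were seen, added mRpS28 and mRpL47 (8 calls, against 14.7%). Of the 6, 2 belong to the small subunit (mRpS25, mRpS16) and 4 to the large (mRpL49, mRpL51, mRpL38, mRpL32).

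mRpS25, a small-subunit protein with no bacterial counterpart, had the largest difference. Its values were 8.57, 8.92 and 10.51 in wild-type LNvs at ZT15 and 3.66, 3.83 and 4.12 in elav neurons. Every LNv array lay above every elav array. The log2 difference was 5.46 (SE 0.93, adjusted p = 0.0013), and the call held under all 23 alternative settings, with adjusted p from 0.000205 to 0.0199. Not all of these settings could alter the log2 difference. Leaving out an array of another group left it unchanged, and mRpS25 had no other probe set. The smallest adjusted p came without cyc0 replicate 2, an array outside this comparison. The transcript was not high in every LNv array of the series. At ZT3 it lay at 8.28, 8.14 and 7.33, in per0 at 7.39, 4.86 and 7.44, and in cyc0 at 2.63, 7.08 and 3.75, so that 2 of the 3 cyc0 arrays lay within or below the range of elav neurons.

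mRpS16, the counterpart of a bacterial protein of the same number, lay at 6.09, 6.68 and 6.08 in wild-type LNvs at ZT15 and at 2.81, 2.96 and 3.23 in elav neurons. All elav arrays were below the working level, so LNvs were at least 4.87-fold higher (adjusted p = 0.00782). In wild-type LNvs at ZT3 mRpS16 lay at 2.99, 5.70 and 3.42, which overlaps the elav range on 1 array. The ZT15 arrays were thus the high ones, above every array of the other 4 groups.

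In the large subunit, mRpL49 lay at 7.07, 7.44 and 7.93 against 3.32, 3.82 and 5.02, a log2 difference of 3.43 (SE 0.77, adjusted p = 0.00684). It was as even in wild-type LNvs at ZT3, at 6.92, 7.31 and 7.05. In the mutants it spread from 4.51 to 7.30 (per0) and from 4.33 to 7.28 (cyc0), between and across both ranges. mRpL49 is one of the proteins added to the ribosome in mitochondria.

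mRpL51, also without a bacterial counterpart, lay at 6.35, 5.72 and 5.14 in LNvs and at 2.92, 2.97 and 3.02 in elav neurons, at least 3.33-fold higher (adjusted p = 0.0147). mRpL38, another addition of the mitochondrial lineage, lay at 7.82, 5.15 and 5.30 against 3.12, 3.11 and 3.08, at least 4.26-fold higher (adjusted p = 0.0204). mRpL32, related to a bacterial protein and matured in mouse and yeast mitochondria by an inner-membrane protease, lay at 7.30, 5.39 and 6.14 against 4.15, 4.14 and 4.59 (log2 difference 1.99, SE 0.55, adjusted p = 0.0251). The groups did not overlap for any of these genes, but the calls of mRpL51, mRpL38 and mRpL32 were lost with wild-type replicate 1 left out, those of mRpL38 and mRpL32 also without elav replicate 1 or 2, and that of mRpL32 also without wild-type replicate 3 and in a fit to only the groups compared (largest adjusted p over the alternatives 0.0715, 0.118 and 0.103). With no filter on low values, mRpS16, mRpL49, mRpL51 and mRpL38 were not called either (adjusted p up to 0.118), which left 2 of the 6 calls.

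The most negative difference was that of mRpL47, a large-subunit protein with a bacterial relative despite its number, at 5.43, 3.92 and 6.27 in LNvs and 6.63, 7.89 and 6.73 in elav neurons (log2 difference -1.87, SE 0.64, adjusted p = 0.0628). It passed after quantile normalization (adjusted p = 0.0163), after centring on the tested probe sets (0.0248) and without wild-type replicate 3 (0.0349). Its second probe set differed by -0.15 (adjusted p = 0.931). mRpS28 (log2 difference 2.19, adjusted p = 0.052), mRpL24 (at least 1.24-fold, 0.0727), mRpL42 (log2 difference 1.51, 0.0745) and mRpL14 (1.91, 0.0947) also lay just outside the threshold without overlap of the groups.

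Over all 69 members the median log2 difference was 0.51, with 50 positive and 19 negative, while the median over all named genes was -0.01, with 42% positive. The large subunit had a median of 0.55 and the small one of 0.27. By the family's numbering, members that match bacterial proteins had a median of 0.52 and the others 0.44. The numbering is not exact. mRpL47 and mRpS24 fell among the others although both have bacterial relatives, and further exceptions were not searched for. The member median was 0.35 without elav replicate 1 and 0.71 without elav replicate 3. It was 0.59 after centring of each array on its median, 0.53 after quantile normalization and 0.34 after centring on the tested probe sets. Those scalings moved the median of all tested probe sets in this comparison from 0.11 to 0.18, 0.03 and -0.07. Of the markers of other cells, those of neuroblasts and of the cell cycle summed lower in LNvs, while the glial sums overlapped. The 4 glial markers summed to 17.3 to 22.17 in elav neurons and 16.72 to 20.73 in wild-type LNvs at ZT15. Gs2 was higher in LNvs (limma, log2 difference 2.03, adjusted p = 0.0346) and nrv2 was lower (-2.21, adjusted p = 0.0222). The summed log2 level of 5 neuroblast markers was 24.96 to 33.28 in elav neurons and 12.91 to 15.34 in wild-type LNvs at ZT15, with 3 to 5 and 0 to 1 of them at log2 4, and that of 4 cell cycle markers was 22.1 to 24.48 against 11.88 to 14.3. The part of these cells in the members' differences was not tested.

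The mutant LNvs were set against the same 3 elav arrays, so these comparisons are not independent of the one above. In per0 LNvs 3 of 61 members were higher and none lower, against 10.2% of tested probe sets called, 6.91% higher and 3.33% lower. The 3 were mRpL42, mRpL32 and mRpL24, all of the large subunit. mRpL42, a mitochondrial addition, lay at 9.35, 9.01 and 10.10 in per0 and 6.58, 7.53 and 7.81 in elav neurons (log2 difference 2.18, SE 0.54, adjusted p = 0.0148). mRpL32 lay at 6.55, 5.88 and 6.63 in per0 (log2 difference 2.06, adjusted p = 0.024). mRpL24, whose bacterial counterpart starts the assembly of the large subunit, lay at 4.59, 4.15 and 5.31 against 2.68, 2.68 and 3.23 and was at least 1.60-fold higher (adjusted p = 0.0302). Each call was lost without per0 replicate 1, per0 replicate 3 or elav replicate 1 (largest adjusted p 0.074 for mRpL42, 0.104 for mRpL32 and 0.133 for mRpL24), and 5 members were called without per0 replicate 2. Over all omissions of 1 array, 246 to 683 of all tested probe sets were called. Without elav replicate 2 the calls of mRpL32 and mRpL24 were lost, and mRpL24 was also not called after centring on the tested probe sets or in a fit to the groups compared.

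In cyc0 LNvs 0 of 61 members passed, against 5.61% of tested probe sets called, 3.41% higher and 2.2% lower (limma, smallest adjusted p = 0.071), and 4 had an unadjusted p under 0.05, as had 19.8% of tested probe sets. These were mRpL47, with cyc0 at 4.75, 5.21 and 5.17 (log2 difference -2.04), mRpL42 (1.14), and mRpL24 and mRpL51, which were below log2 4 on all elav arrays (at least 1.3-fold and 1.55-fold). The call of mRpL47 was made after quantile normalization, after centring on the tested probe sets and without wild-type ZT15 replicate 2, which enters through the shared spread (smallest adjusted p 0.0111). The call of mRpL24 was made after quantile normalization (adjusted p = 0.0301). The second probe set of mRpL47 differed by -0.70 (adjusted p = 0.691). The median over the 69 members was 0.59 in per0 and 0.31 in cyc0, against 0.00 for all named genes in both, most of which lie below log2 4. The median of the tested probe sets was 0.32 in per0 and 0.28 in cyc0, so that the cyc0 value was near that of all tested probe sets. For cyc0 its sign turned to -0.07 after centring on the tested probe sets, and it was 0.37 after centring on the array median and 0.25 after quantile normalization. It was 0.11 without elav replicate 1, 0.10 without cyc0 replicate 2, 0.56 without cyc0 replicate 3 and 0.46 without elav replicate 3. For per0 it was 0.67, 0.41 and 0.24 under the same 3 scalings (array median, quantile, tested probe sets). It was 0.22 without per0 replicate 3, 0.38 without elav replicate 1 and 0.93 without elav replicate 3.

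**Figure D3:**
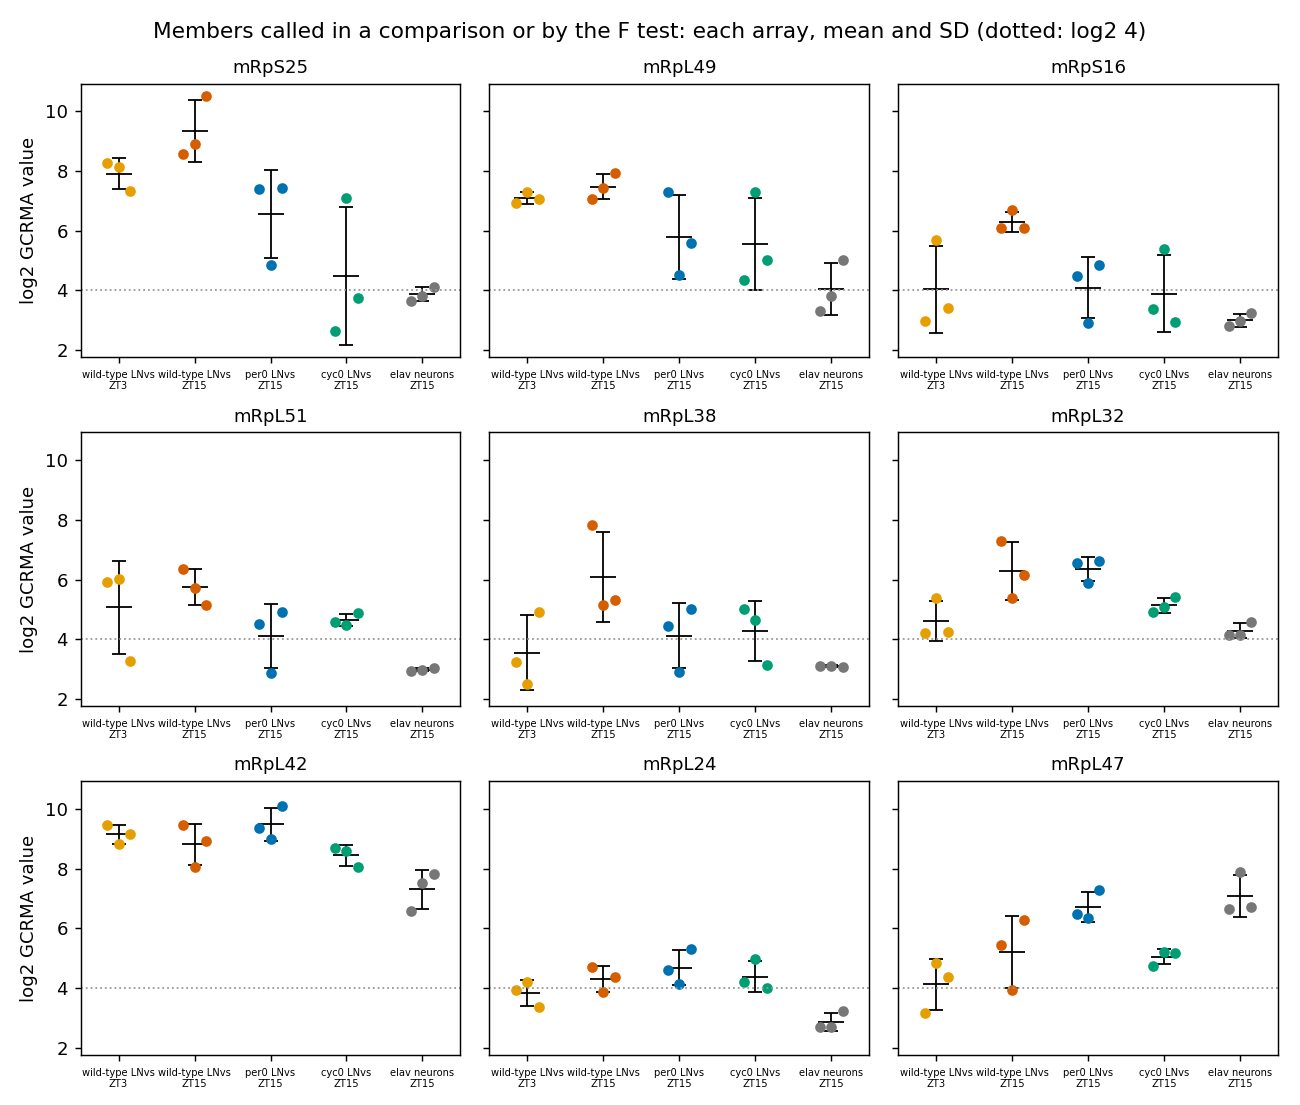
Each panel shows 1 member that passed in a comparison or in the F test, with every array as a point, the group mean and SD (n = 3) as a bar, and log2 4 as a dotted line. mRpS25 averages 9.33 in wild-type LNvs at ZT15, 6.56 in per0, 4.49 in cyc0 and 3.87 in elav neurons, while mRpL47 has its lowest mean in wild-type LNvs at ZT3.

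Wild-type LNvs of the early night (ZT15) were compared with those of the morning (ZT3). None of the 61 members passed (limma, smallest adjusted p = 0.211), with 7 at an unadjusted p under 0.05, all higher at ZT15, where 4.03% of tested probe sets were higher and 4.8% lower by that measure, and 0.789% of all tested probe sets passed, 0.429% higher and 0.36% lower. The 3 members with the smallest p were mRpL38, mRpL55 and mRpS16. mRpL55, a protein of the large subunit, lay at 5.03, 5.04 and 5.54 at ZT15 and 3.16, 3.57 and 3.31 at ZT3, which do not overlap (at least 2.3-fold, adjusted p = 0.224). mRpL38 differed by 2.54 (SE 0.80, adjusted p = 0.211) and mRpS16 by 2.25 (SE 0.75, adjusted p = 0.252). mRpS25 differed by 1.42 (SE 0.93, adjusted p = 0.71), without overlap of the arrays, and mRpL49 by 0.39 (SE 0.77, adjusted p = 0.974).

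The median over the 69 members on an array was 5.03, 4.69 and 4.92 at ZT15 and 3.55, 4.27 and 3.81 at ZT3, so that the arrays of the 2 times did not overlap. The median over the tested probe sets, in contrast, was 5.16, 4.74 and 5.00 at ZT15 and 4.46, 5.24 and 5.44 at ZT3, which overlapped. The median of the log2 differences was 0.57 (51 positive, 18 negative), against 0.00 for all named genes, of which 48.1% were positive. It was 0.59 after centring on the array median, 0.57 after quantile normalization and 0.65 after centring on the tested probe sets. It was 0.25 without wild-type ZT15 replicate 1 and 0.52 to 0.63 without any other of the 6 arrays. None of 4 glial markers passed. Their summed log2 level was 19.98 to 25.66 at ZT3 and 16.72 to 20.73 at ZT15, which overlap, with repo, the defining glial factor, at 5.87, 3.58 and 7.37 against 2.93, 3.18 and 2.83, and the part of glia in these values was not tested.

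**Figure D4:**
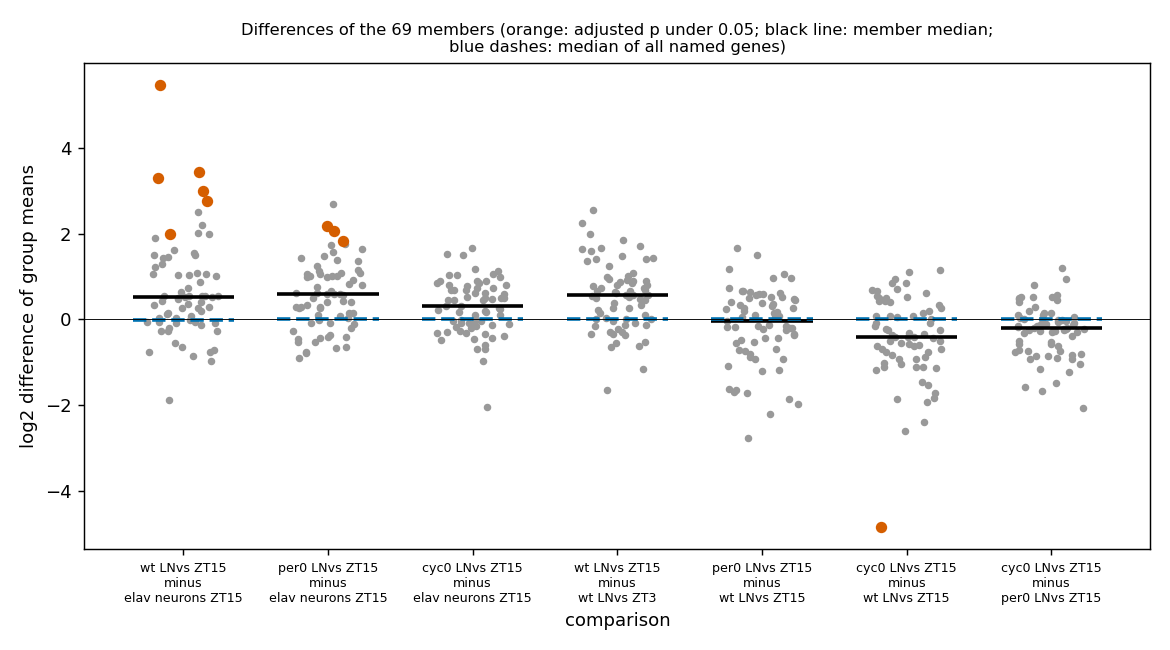
Log2 differences of group means for each of the 69 members in the 7 comparisons, with members at an adjusted p under 0.05 in orange, the member median as a black line and the median of all named genes as blue dashes. The member median is 0.51, 0.59 and 0.31 against elav neurons, 0.57 for ZT15 against ZT3, and -0.03, -0.41 and -0.20 in the comparisons between LNv genotypes.

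The clock mutants were compared with wild-type LNvs at ZT15. The ZT15 wild-type arrays are shared by these comparisons and by those above, so a gene that is high on them enters each of them. Of the markers of other cells, the summed log2 level of the 4 cell cycle genes was 14.45 to 18.95 in per0 and 15.31 to 20.91 in cyc0, both above the 11.88 to 14.3 of wild type, with none of the 4 past the threshold. The 4 glial markers summed to 13.89 to 15.02 in per0 and 14.6 to 17.87 in cyc0 against 16.72 to 20.73. Of these markers only Gs2 passed, lower in per0 (limma, adjusted p = 0.0225) and in cyc0 (0.0448). In wild type, per0 and cyc0, nrv2 went the other way, with means of 5.39, 5.67 and 6.07. The means of repo were 2.98, 2.72 and 2.94, and those of moody 3.10, 2.30 and 2.95. The 5 neuroblast markers summed to 12.55 to 19.94 and 13.18 to 20.09 against 12.91 to 15.34, with none past the threshold. The part of these cells in the members' values was not tested. In per0 none of 61 members passed, against 1.18% of all tested probe sets, 0.463% higher and 0.721% lower (limma, smallest adjusted p = 0.16). By unadjusted p under 0.05 there were 7, 1 higher and 6 lower, against 16.5% of tested probe sets, 10.5% higher and 5.99% lower. mRpS25 differed by -2.77 (SE 0.93, adjusted p = 0.16), mRpS16 by -2.20 (SE 0.75, 0.163) and mRpL38 by -1.98 (SE 0.80, 0.231), in each case without overlap of the arrays. These members were picked for the smallest p, so the lack of overlap is no further support. mRpL47 differed by 1.51 (adjusted p = 0.253), with per0 at 6.50, 6.35 and 7.29, and its second probe set by 0.72 (adjusted p = 0.682). The median over the 69 members was -0.03, with 34 positive, against 0.01 for all named genes and 0.24 for the tested probe sets. It was -0.03 after centring, -0.16 after quantile normalization and -0.20 after centring on the tested probe sets. It ranged from -0.23 without per0 replicate 3 to 0.30 without per0 replicate 2, and without wild-type replicate 1 mRpL23 was called lower (-3.37, adjusted p = 0.0385).

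In cyc0 mRpS25 alone was lower and no member was higher, against 2.9% of tested probe sets called, 1.37% lower and 1.53% higher. Its cyc0 values of 2.63, 7.08 and 3.75 all lay under the lowest wild-type value of 8.57, a log2 difference of -4.84 (SE 0.93, adjusted p = 0.00737). The call was lost without cyc0 replicate 1, in a fit to the groups compared and with no filter on low values (largest adjusted p 0.113), and without cyc0 replicate 2, the array at 7.08, the log2 difference was -6.14. In all, 2 members were called without wild-type replicate 1 and 3 without cyc0 replicate 2. Over all omissions of 1 array, 62 to 258 of all tested probe sets were called. mRpS16, at 3.36, 5.37 and 2.94 in cyc0, differed by -2.40 (SE 0.75, adjusted p = 0.0911) and passed after quantile normalization, after centring on the tested probe sets and without cyc0 replicate 2 (smallest adjusted p 0.0246). mRpL50, a mitochondrial addition, lay at 3.54, 4.52 and 4.01 against 5.63, 5.32 and 6.67 (log2 difference -1.85, SE 0.63, adjusted p = 0.118). The median over the 69 members was -0.41, with 25 positive and 44 negative, against 0.01 for all named genes and 0.17 for the tested probe sets. It was -0.42 after centring, -0.46 after quantile normalization and -0.60 after centring on the tested probe sets, and it was -0.14 without wild-type ZT15 replicate 1 and -0.21 without cyc0 replicate 3.

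Between the mutants none of 61 members passed, against 0.789% of all tested probe sets, 0.343% higher and 0.446% lower (limma, smallest adjusted p = 0.374). By unadjusted p under 0.05 there were 4, all lower in cyc0, against 10.1% of tested probe sets, 4.73% higher and 5.32% lower. mRpL47 differed by -1.67 (adjusted p = 0.374), mRpL50 by -1.47 (0.432) and mRpS25 by -2.07 (0.456). The arrays overlapped for mRpS25 and not for mRpL47 and mRpL50. mRpS25 passed without cyc0 replicate 2 (log2 difference -3.37, adjusted p = 0.0496). The median was -0.20, with 21 positive and 48 negative, against 0.00 for all named genes and -0.04 for the tested probe sets. It was -0.21 after centring, -0.14 after quantile normalization and -0.22 after centring on the tested probe sets. It was 0.01 without per0 replicate 3, -0.09 without cyc0 replicate 3, -0.51 without per0 replicate 2 and -0.39 without cyc0 replicate 2.

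Other genes of mitochondrial translation were drawn from lists of their functions. Both mitochondrial ribosomal proteins with older names stayed untested. They are tko (technical knockout, the small-subunit protein whose mutants are sensitive to mechanical shock), between 2.69 and 4.81 on the 15 arrays, and bonsai, another small-subunit protein, which lay at 4.91, 3.57 and 6.38 in per0 and below 4 on the other 12 arrays. Of 10 mitochondrial translation factors 4 could be tested and none passed in any of the 7 comparisons. The smallest adjusted p in wild-type LNvs against elav neurons was that of mEFG1, the elongation factor that moves the ribosome along, with means of 4.49 and 2.86 (adjusted p = 0.0739). None of 9 tested of 18 aminoacyl-tRNA synthetases passed, a list that also held ThrRS, AlaRS, LysRS and GlyRS, whose symbols do not mark them as mitochondrial. None of 2 tested of 17 genes of mitochondrial transcription, RNA processing and ribosome assembly passed. Of 9 tested of 10 genes of membrane insertion and protein quality control, the chaperonin gene Hsp60A was higher in wild-type LNvs than in elav neurons (log2 difference 2.60, adjusted p = 0.0236) and lower in cyc0 than in wild type (-2.78, adjusted p = 0.0432). The list medians in wild-type LNvs against elav neurons were 0.00 for the factors, 0.02 for the synthetases, -0.04 for transcription and assembly and 0.39 for insertion and quality control.

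The respiratory chain and the cytoplasmic ribosome gave counts for orientation. Among 56 tested of 76 nuclear oxidative phosphorylation subunits, the machinery whose core subunits the mitochondrial ribosome makes, 12 were higher in wild-type LNvs than in elav neurons, where 7.26% of tested probe sets were, led by COX7C (4.62, adjusted p = 0.00203), ND-ASHI (5.60, 0.0029) and ND-75 (2.95, 0.00358), with a list median of 0.66. In per0 against elav neurons 8 were higher, led by COX7C (3.98, adjusted p = 0.00646), and ND-B12 was lower (-2.22, adjusted p = 0.0478), with a median of 0.28 that was 0.05 after quantile normalization. In cyc0 against elav neurons none passed and the median was 0.13. Between ZT15 and ZT3 none of them passed, and their median was 0.50. Among 30 tested of 36 cytoplasmic ribosomal protein genes, 6 were higher in wild-type LNvs than in elav neurons, led by RpS7 (4.07, adjusted p = 0.00477), with a median of 1.22 that was 0.45 after quantile normalization. RpS7 was also higher in per0 than in elav neurons (2.81, adjusted p = 0.0463), and RpS21 was lower in cyc0 than in wild type (-2.43, adjusted p = 0.0393), where the list median was -1.29, with 4 of 36 positive, and -0.76 after quantile normalization. Their median for ZT15 against ZT3 was 0.14. The differences between these groups and the mitochondrial ribosomal proteins were not tested.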

How the data were processed

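The deposited table holds log2 values of 18869 probe sets on 15 arrays, made by the authors with GCRMA, per the submitters' processing notes in a version not given in the sources used here. Per the labels' protocols, brains were dissociated for 2 h and a NuGen kit amplified the RNA, which can lose weak transcripts on single arrays. After removal of 100 control probe sets, 13647 had 1 platform symbol, 402 several and 4720 were unnamed here. All 69 member symbols were current in the gene table. Probe sets at log2 4 or above on at least 3 of 15 arrays were fitted with a mean per group (limma 3.58.1 in R 4.3.3, lmFit and eBayes, 10 residual and 7.46 prior degrees of freedom), with two-sided p-values adjusted by Benjamini-Hochberg over all 5829 probe sets within each of 7 comparisons and for the F test. The fit was tested on simulated data. The number of arrays limits the precision, and a bound ("at least") is the brighter group's mean against log2 4, which is not a measured detection limit. Background correction and slide could not be varied, since the values were already processed.

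Members and lists were chosen with earlier results of these data known. Named in each comparison were members that passed, up to 8 per direction, and the 3 with the smallest p, besides members extreme in mean, SD or F test. Members named beyond this rule were chosen after their values were seen. Where arrays are said not to overlap, the share of all probe sets without overlap is not given. Lack of overlap thus describes the values and adds no support to a p-value. The main fit did not pair arrays by the replicate numbers of the titles. Deviations from the group means of same-numbered arrays correlated above 0.1 in 5 of 30 pairs, with a median of 0.02. Arrays of different number did so in 5 of 60 pairs, with a median of -0.01. Such correlations cannot settle whether same-numbered arrays were collected together. Alternatives were no filter, centring, quantile normalization, another prior, a fit to the 2 groups compared, a replicate block, the other probe set and leaving out each array.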

Additional observations from a re-analysis of the deposited data

How the results depend on the processing

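The counts of members called were 6 (wild-type LNvs against elav neurons), 3 (per0 against elav), 1 (cyc0 against wild type), 0 in the other 4 comparisons and 5 in the F test. With no filter they were 2, 3, 0, 0 and 1, in a fit over many probe sets near background. Quantile normalization gave 9 for wild type against elav (8 higher, 1 lower), 4 for per0 against elav, 2 for cyc0 against elav (1 higher, 1 lower), 2 for cyc0 against wild type and 9 for the F test. Centring on the tested probe sets, added after the data were seen, gave 8 (7 higher, 1 lower), 2, 1, 2 and 6. The fit to the 2 groups compared gave 0 for cyc0 against wild type. The share of all tested probe sets called also rose with quantile normalization, as given above for wild type against elav and for the F test. Where no such share is given, these counts are not a result about the members. The causes were not tested. With 1 array left out the counts ranged from 4 to 7 for wild type against elav, 0 to 5 for per0 against elav, 0 to 1 for cyc0 against elav, 0 to 0 for ZT15 against ZT3, 0 to 1 for per0 against wild type, 0 to 3 for cyc0 against wild type, 0 to 1 for cyc0 against per0 and 2 to 6 for the F test. Calls over all tested probe sets also varied. In the same order they ranged from 491 to 805, 246 to 683, 166 to 455 and 20 to 47. For the last 4 they ranged from 25 to 142, 62 to 258, 20 to 67 and 545 to 939. The arrays whose omission gave 0 for per0 against elav were per0 replicates 1 and 3 and elav replicate 1. The replicate block gave 3 in the F test and changed none of the other counts. By deviations from the group means, 7 of 15 arrays correlated best with their own number, which does not settle whether the numbers pair the arrays. For the 10 calls in the 7 comparisons, settings that change the processing or leave out an array of the comparison gave 130 values, of which 29 lost the call and 0 changed sign. These losses were 13 of 78 for wild type against elav, 13 of 39 for per0 against elav and 3 of 13 for cyc0 against wild type. With 3 arrays per group and many members near log2 4, small differences were not detectable.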
